A study of Mus musculus with 33 samples.

Results

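Foxn1 is 1 of the 15273 genes in a table of 33 bulk RNA libraries of sorted mouse cells, and it was followed by its row through all of them. The gene encodes a forkhead transcription factor that thymic epithelial cells (TEC) need to mature and to attract and instruct T cell precursors. In the skin it acts in keratinocytes that build the hair shaft, and loss of the gene gives the hairless, athymic nude mouse. In the annotation used (GENCODE M21, build GRCm38) Foxn1, ENSMUSG00000002057.4, lies on the minus strand of chromosome 11 from 78357577 to 78386558, with 1 transcript of 9 exons. The libraries count 3' ends, and the last exon runs from 78357577 to 78359070. No other annotated gene overlaps it, and the nearest, Unc119 and Slc13a2os, lie 8413 and 7927 bases away.

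All mice were C57BL/6. The TEC came from wild-type thymi, as 2 libraries each at embryonic day 15 (E15) and E17, 2 each of day 6 populations titled mTEC1, mTEC2 and mTEC4, and 20 at 6 weeks. The 6-week titles name cTEC and mTEC1 to mTEC4, 4 libraries each, with the numbers 189, 191, 195 and 196. The letters c and m are the field's usual marks for cortical and medullary TEC. The other 3 libraries, called HFC in the labels, hold cells from the dorsal skin of 4-week Foxn1 EGFP mice, sorted as EGFP positive, so they were selected through a reporter that carries the gene's name. The labels do not describe how that reporter was built, nor do they say that replicates came from separate animals, so p-values measure the spread between these libraries, which may be technical. Library totals ran from 98670 to 1732688 UMIs (unique molecular identifiers, each standing for 1 captured molecule), with 8828 to 14854 genes detected. Counts of libraries in 1 set differed by more than sampling noise (chi-square over degrees of freedom, 2.15 to 11.2). In bulk RNA, fewer cells of a type and less RNA per cell cannot be told apart.

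The titles and the marker genes of the 6-week libraries do not go together. The 20 libraries were therefore grouped by 5 markers, as the choice of the gene's groups required: Prss16, a cortical serine protease; Krt5, a keratin of medullary and basal cells; Aire, the regulator of self-antigens in medullary TEC; Pth, parathyroid hormone; and Trpm5, an ion channel of tuft cells. The thresholds were 2000 UMIs per 1000000 (CPM) for Prss16, 2500 for Krt5 and 1000 for the other 3. Each of the 20 libraries passed 1 threshold and no more, with 4 libraries in each set. The sets were well apart at the thresholds. Prss16 was at 3453 CPM or more inside its set and at most 469 outside, and Krt5 at 3468 or more against at most 1537. Aire was at 1998 or more against at most 216, Pth at 3891 or more against at most 23.0, and Trpm5 at 1689 or more against at most 90.2. Of the 4 libraries titled cTEC, 0 fell in the Prss16-high set and 1 fell in each of the other sets. All 4 Krt5-high libraries have the number 189 in their titles and all 4 Prss16-high libraries have 196, so set and number cannot be told apart there. With the titles ordered by number and then from cTEC to mTEC4, each run of 4 consecutive libraries fell in 1 set. Whether titles and libraries were matched correctly was not tested, and every 6-week value by title or number rests on them. The 4 Pth-high libraries are also the 4 with fewer than 200000 UMIs. The sets are called by their marker below, their values are a description with no test, and the marker that defined a set is no finding in it.

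FOXN1 protein binds DNA through a forkhead domain whose sites hold the core letters GACGC, read GCGTC on the other strand. It controls genes of the cortical epithelium, among them the proteasome subunit Psmb11, the Notch ligand Dll4 and the chemokines Ccl25 and Cxcl12. The promoter of Foxn1 itself and those of a pair of its targets are shown as the regions through which the gene is controlled and acts. Each window, from RefSeq on GRCm38.p6, runs from 250 bases before to 50 after a start site, 5′ to 3′ on the gene's strand. Capitals mark GACGC or GCGTC. The windows are chr11:78386559-78386858 on the minus strand for Foxn1, chr14:54625060-54625359 on the plus strand for Psmb11 and chr6:117168285-117168584 on the plus strand for Cxcl12.
Foxn1: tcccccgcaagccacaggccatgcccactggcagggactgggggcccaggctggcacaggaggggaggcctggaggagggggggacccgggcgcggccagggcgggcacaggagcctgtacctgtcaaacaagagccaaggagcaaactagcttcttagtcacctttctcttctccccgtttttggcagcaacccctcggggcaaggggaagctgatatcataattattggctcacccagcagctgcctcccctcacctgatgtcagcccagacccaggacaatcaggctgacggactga
Psmb11: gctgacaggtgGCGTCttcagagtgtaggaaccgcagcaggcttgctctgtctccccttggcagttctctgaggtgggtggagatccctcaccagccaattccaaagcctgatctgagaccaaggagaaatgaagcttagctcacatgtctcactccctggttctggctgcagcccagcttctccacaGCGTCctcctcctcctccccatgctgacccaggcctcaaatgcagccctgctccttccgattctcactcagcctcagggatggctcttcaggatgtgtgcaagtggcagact
Cxcl12: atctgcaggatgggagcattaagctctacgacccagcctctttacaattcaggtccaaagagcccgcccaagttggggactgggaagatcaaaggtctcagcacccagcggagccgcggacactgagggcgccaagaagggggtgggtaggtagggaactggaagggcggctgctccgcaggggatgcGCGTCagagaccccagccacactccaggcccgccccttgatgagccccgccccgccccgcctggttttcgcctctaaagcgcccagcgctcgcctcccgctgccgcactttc
The letters occurred in the Psmb11 window 239 and 62 bases before the start site and in the Cxcl12 window 62 bases before it. They did not occur in the Foxn1 window, whose GC content was 62.7%, which says only that they are not in these 300 bases. Of the targets listed below, 7 of 9 had a window, and 4 of the 7 held the letters (Ccl25, Cxcl12, Kitl and Psmb11). The letters were in 45.7% of the 12062 genes of the table that had a window and in 29.6% of all 27025 genes with one. A match is a description of letters, not a site.

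Foxn1 was highest in the embryonic thymus and lower in the day 6 titles and the 6-week sets. At E15 it stood at 1065 CPM (1329 UMIs) and 892 CPM (1546 UMIs), and at E17 at 736 CPM (833 UMIs) and 547 CPM (551 UMIs). The 2 ages did not overlap. On day 6, the libraries titled mTEC1 had 434 and 416 CPM, those titled mTEC4 had 251 and 348, and those titled mTEC2 had 89.2 and 47.8, from 29 and 16 UMIs. The 3 titles therefore did not overlap, and each stood below every embryonic library.

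At 6 weeks the Aire-high and Prss16-high sets overlapped in Foxn1. It stood at 209, 313, 207 and 235 CPM in the Aire-high libraries and at 193, 206, 202 and 231 CPM in the Prss16-high libraries. The Krt5-high libraries held 112, 101, 119 and 100.4 CPM, all below both of those sets. The Pth-high libraries ran over the widest fold, at 114, 60.7, 29.7 and 10.1 CPM, but these rest on 20, 9, 5 and 1 UMIs. The 95% exact binomial interval of the last runs from 0.257 to 56.5 CPM. The Trpm5-high libraries held 10.4, 33.2, 10.4 and 15.9 CPM, from 4, 17, 7 and 6 UMIs. They were below every Krt5-high library and overlapped the Pth-high set. Such intervals cover counting error only.

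In HFC, the cells sorted by the Foxn1 reporter, Foxn1 stood at 11.5, 26.5 and 36.8 CPM, from 6, 17 and 25 UMIs. Every HFC library held Foxn1 UMIs, at levels that overlapped the Trpm5-high and Pth-high sets and stood below every Prss16-high, Aire-high and Krt5-high library. By their medians the sets ran from E15 (978 CPM) through E17 (642), day 6 mTEC1 (425), day 6 mTEC4 (299.8), Aire-high (222), Prss16-high (204), Krt5-high (106), day 6 mTEC2 (68.5), Pth-high (45.2) and HFC (26.5) to Trpm5-high (13.2). Neighbours whose ranges overlapped were day 6 mTEC4 and Aire-high, Aire-high and Prss16-high, day 6 mTEC2 and Pth-high, Pth-high and HFC, and HFC and Trpm5-high. Pth-high also reached Krt5-high and Trpm5-high.

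**Figure D1:**
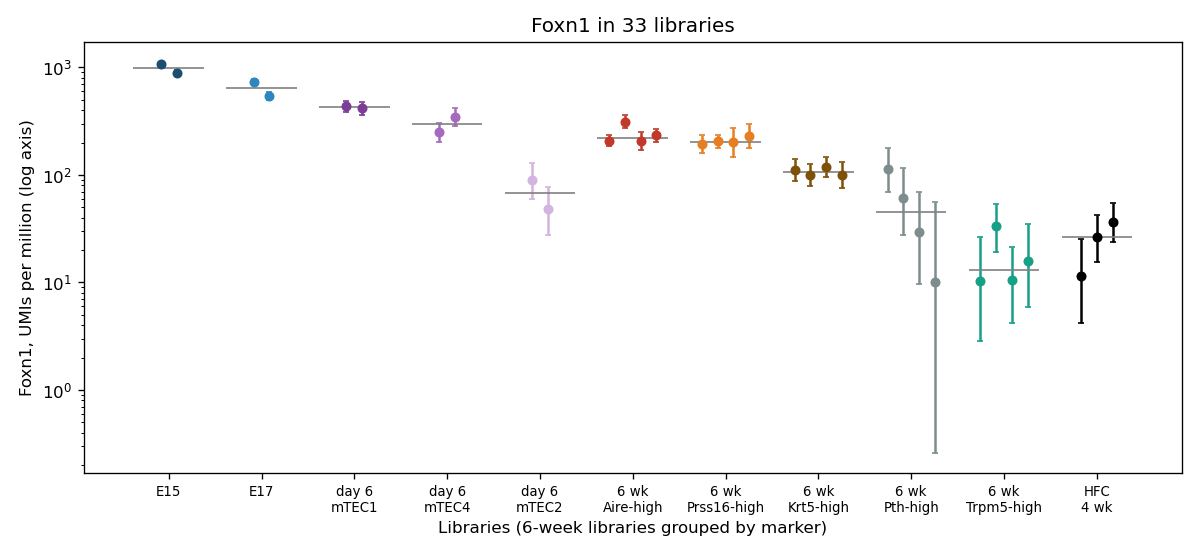
Foxn1 in UMIs per 1000000 (log axis) in each of the 33 libraries, with the 6-week libraries grouped by marker. Points are libraries, bars their 95% exact binomial intervals (counting error only) and grey lines set medians, which fall from 978 at E15 to 13.2 in the Trpm5-high set.

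Each title of the 6-week libraries holds at most 1 library of any marker set, so the spread between sets lies inside every title. A test across titles could hardly call a gene in this layout, and no conclusion about the titles is drawn from it. In a limma test across the 5 titles, Foxn1 had an adjusted p of 1.0, and 0 of 13610 genes passed an adjusted p of 0.05 (percent called 0). Without adjustment 70 genes had p below 0.05, and edgeR and DESeq2 called 0 genes each.

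Between ages, Foxn1 fell from embryonic TEC to 6 weeks. Its mean level was 810.0 ± 221 CPM (SD, n = 4) in embryonic TEC, 264 ± 165 (SD, n = 6) at day 6 and 126 ± 92.9 (SD, n = 20) at 6 weeks. Every 6-week library was below every embryonic one, and the log2 difference was -3.25 ± 0.72 (SE; 95% interval -4.70 to -1.80; limma adjusted p = 0.00143 over 14172 genes). An exact permutation test of that difference, two-sided, gave p = 0.00104, or 0.00414 adjusted over 4 age comparisons. The 20 libraries hold the 5 marker sets in equal numbers, so their mean depends on that mix. Gapdh splits the libraries into at most 29.7 and at least 532 CPM, a difference whose origin is not given in the sources used here. It is low in both E17 libraries, in 17 of 20 at 6 weeks and in 1 of 3 HFC libraries, and high in both E15 and all 6 day 6 libraries. Among those with low Gapdh, a split made after seeing the data that leaves E17 as the only embryonic age, the difference was -3.07 with a limma adjusted p of 0.201. Among those with high Gapdh, 3 at 6 weeks against the 2 of E15, it was -2.86 with 0.0356.

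Day 6 gave a less settled result. The log2 difference from embryonic TEC was -1.95 ± 0.84 (SE; 95% interval -3.66 to -0.24) and did not pass (limma adjusted p = 0.248), although the libraries did not overlap. The exact permutation test gave p = 0.0190, adjusted 0.0381. In a fit of the 10 embryonic and day 6 libraries with the titles as groups, chosen after seeing the data, the same difference had a limma adjusted p of 0.000173, and with only the 2 ages in the fit 0.0413. From day 6 to 6 weeks the difference was -1.30 ± 0.61 (SE; 95% interval -2.54 to -0.07; limma adjusted p = 0.173; exact permutation p = 0.0836), with overlapping ranges. As all 6 day 6 libraries hold high Gapdh and 17 of 20 at 6 weeks low Gapdh, these ages can hardly be told apart from it. Between E17 and E15 it was -0.62 ± 0.32 (SE; 95% interval -1.32 to 0.09; limma adjusted p = 1.0) with 2 libraries a group. Both E15 libraries hold high Gapdh and both E17 libraries low Gapdh, which cannot be told apart from age.

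HFC differed from 6-week TEC by -1.76 ± 0.81 log2 units (SE; 95% interval -3.40 to -0.12), with 25.0 ± 12.7 CPM (SD, n = 3) against 126 ± 92.9 (SD, n = 20). This did not pass (limma adjusted p = 0.105; exact permutation p = 0.0740, adjusted 0.0836), and the ranges overlapped. DESeq2 on the recovered UMIs gave -1.87 with an adjusted p of 0.0374, and without the 4 shallow Pth-high libraries limma gave -2.02 with 0.0477, a fit added after seeing the data. The median of all genes in this comparison was itself -0.75, or -0.45 with median of ratios scaling. The split of called genes moved from 694 higher and 2890 lower to 1232 and 2015 with that scaling.

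Among the day 6 titles Foxn1 was higher in mTEC1 than in mTEC2 by 2.67 ± 0.32 log2 units (SE; limma adjusted p = 0.00203) and higher in mTEC4 than in mTEC2 by 2.15 ± 0.32 (SE; limma adjusted p = 0.00476). Between mTEC1 and mTEC4 the difference was 0.52 ± 0.32 (SE; 95% interval -0.19 to 1.23; limma adjusted p = 0.479). Cell markers moved with these titles. The summed cortical list was 6520.0 to 8279 CPM in mTEC1, 2782 to 4036 in mTEC4 and 368 to 1354 in mTEC2, beside 4989 to 6655 in the embryo. Most of the mTEC1 sum was Prss16 (5857 and 7398 CPM). Apart from Ly75, the members of this list (Psmb11, Prss16, Ctsl and Dll4) are also among the Foxn1 targets below, so the lists are not independent. The tuft cell list was 1575 to 1963 CPM in mTEC2 and at most 75.4 in the other titles. Endothelial markers summed to 505 to 2319 CPM in mTEC2, 822 to 1096 in mTEC4 and 82.4 to 86.2 in mTEC1. Their part in the Foxn1 differences was not tested.

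**Figure D2:**
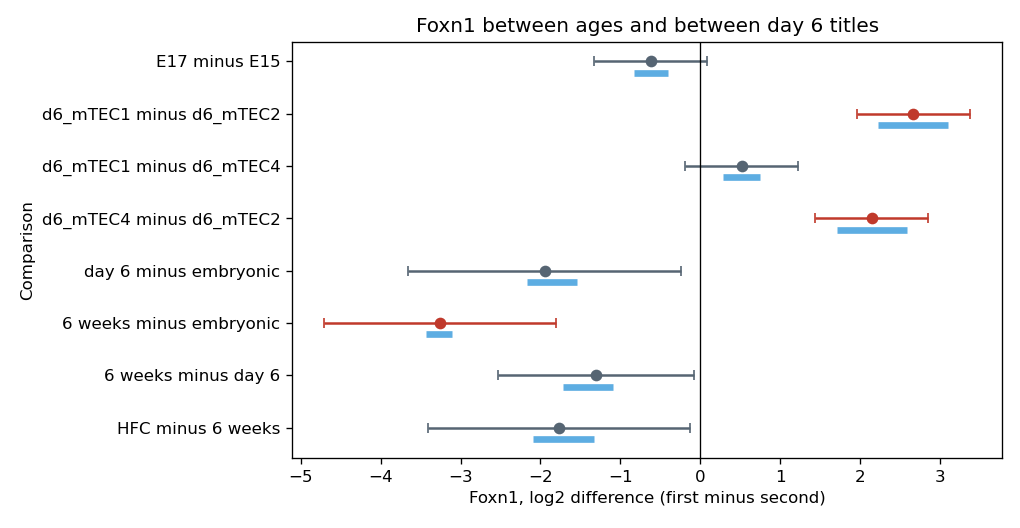
Log2 differences of Foxn1 (x axis, first minus second group) for 8 comparisons. Points with bars are limma estimates with 95% intervals, red where the adjusted p is below 0.05; blue bars span the values with each library left out, and 3 comparisons are red (mTEC1 and mTEC4 against mTEC2 on day 6, and 6 weeks against embryonic).

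The 9 genes listed as Foxn1 targets in TEC were Psmb11, Prss16, Ccl25, Dll4, Cxcl12, Cd83, Kitl, Tbata and Ctsl. Counts of those called follow, with their median log2 difference beside that of all genes. Between day 6 mTEC1 and mTEC2, 8 of 9 were higher and 0 lower at a limma adjusted p below 0.05, where 3.17% of all genes were higher and 2.97% lower. Psmb11, the subunit that marks the thymoproteasome of the cortex, stood at 193 and 226 CPM in mTEC1 and at 21.5 and 23.9 in mTEC2 (log2 difference 3.11 ± 0.31, SE; limma adjusted p = 0.00101). Cxcl12 stood at 1057 and 989 CPM against 166 and 155 (2.66 ± 0.26, SE; limma adjusted p = 0.00101). Kitl, which encodes stem cell factor, missed the threshold at an adjusted p of 0.171. The median of the 9 was 2.71, against 0.08 over all genes. Leaving out 1 library took the count down to 3 (without replicate 2 of mTEC1) or 5 (without its replicate 1). Between mTEC4 and mTEC2, 4 of 9 were higher (Psmb11, Prss16, Cxcl12 and Ctsl), where 2.41% of all genes were higher and 4.95% lower, and 2 without replicate 1 of mTEC4. The median was 2.23, against -0.02 over all genes. Between mTEC1 and mTEC4 only Tbata passed (1.83 ± 0.34, SE; limma adjusted p = 0.0384; 0.95% of all genes higher, 0.392% lower), with a median of 0.88 against 0.11. That call was lost without filtering, and with 3 of the 4 libraries left out in turn.

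Across ages the same list gave 0 to 4 calls. From embryonic TEC to 6 weeks, 4 of 9 were lower and 0 higher, where 7.2% of all genes were lower and 8.62% higher. The median was -2.61, against 0.14 over all genes. Psmb11 was 265 ± 48.1 CPM (SD, n = 4) in the embryo and 39.2 ± 78.5 (SD, n = 20) at 6 weeks (log2 difference -5.18 ± 1.08, SE; limma adjusted p = 0.000803). Dll4, which commits precursors to the T cell lineage through Notch, was 334 ± 89.5 (SD, n = 4) against 55.0 ± 64.4 (SD, n = 20), a difference of -3.44 ± 0.73 (SE; limma adjusted p = 0.00102). The other called targets were Prss16 (-4.42) and Ccl25 (-2.61). edgeR called 2 of the 9, DESeq2 1, and a fit of the low Gapdh libraries 0. From day 6 to 6 weeks the same 4 genes were lower, where 5.41% of all genes were lower and 4.53% higher, but edgeR and DESeq2 called 0 of the 9. The median was -2.11, against 0.12. Without a day 6 library of mTEC1 the count was 1, without replicate 1 or 2 of mTEC4 it was 1 or 2, and without the 4 shallow libraries 2. From embryonic TEC to day 6, 0 of 9 passed either way (3.02% of all genes higher and 0.727% lower), with a median of -0.61 against -0.04. Between E17 and E15 it was also 0 of 9 (0.75% higher and 0.0174% lower), with a median of -0.19 against 0.06.

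Within the 6-week thymus, overlapping levels of Foxn1 came with unequal levels of its targets. The Prss16-high and Aire-high sets overlapped in Foxn1, yet Psmb11 stood at 192, 203, 115 and 238 CPM in the first and at 2.19, 1.64, 0 and 2.38 CPM in the second. Leaving out Prss16, which defined the set, 8 of 8 targets were higher in every Prss16-high than in every Aire-high library, as were 20.1% of 9859 genes with a mean of at least 10 CPM in these libraries. Cxcl12, a chemokine of the cortex, ran from 1538 to 2686 CPM against 5.68 to 62.3. Tbata, a gene of thymus and testis, ran from 4183 to 7642 against 1170.4 to 1384. Ccl25, a chemokine that draws precursors in, ran from 2925 to 4012 against 546 to 991.

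The Prss16-high libraries also held targets above the embryonic level on less Foxn1. Their Foxn1, at 193 to 231 CPM, was below every embryonic library (547 to 1065). Of the 8 targets other than Prss16, 6 were higher in every Prss16-high than in every embryonic library, where 19.5% of 8750 genes were: Ccl25, Cxcl12, Cd83, Kitl, Tbata and Ctsl. Cd83, which supports CD4 T cell selection, ran from 372 to 791 CPM against 187 to 281. Dll4 alone was lower in every one, at 138 to 227 CPM against 255 to 441, where 14.1% of genes were. Psmb11 overlapped, at 115 to 238 against 208 to 326. The Prss16-high set was picked by a cortical gene, while the embryonic libraries were not split by marker. Aire stood at 35.2 to 45.7 CPM at E15 and 362 to 383 at E17, against 0 to 27.8 in the Prss16-high set. Gapdh was low in all 4 Prss16-high and both E17 libraries and high in both E15 libraries. The part of cell mix and of Gapdh in these differences was not tested.

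The sum of the 9 targets divided by Foxn1, a ratio within each library, set the groups out in another order. It was 9.25 to 13.7 at E15, 17.2 to 22.3 at E17, and on day 6 37.2 to 50.6 in mTEC1, 15.3 to 38.2 in mTEC4 and 41.3 to 43.4 in mTEC2. It reached 64.0 to 111 in the Prss16-high set, which Prss16 defines, and was 8.17 to 11.9 in the Aire-high set and 8.62 to 12.4 in the Krt5-high set. In the sets with few Foxn1 UMIs it was 31.2 to 52.4 (Trpm5-high), 5.25 to 38 (Pth-high) and 8.08 to 17.0 (HFC). Nearly all of the HFC sum was Cxcl12, at 180.5, 384 and 281 CPM of sums of 196, 396 and 297. The ratio of Psmb11 alone to Foxn1, which does not use Prss16, was 0.249 to 0.365 at E15 and 0.354 to 0.381 at E17. On day 6 it was 0.444 to 0.544 in mTEC1, 0.28 to 0.61 in mTEC4 and 0.241 to 0.5 in mTEC2. It was 0.57 to 1.03 in the Prss16-high set, which overlapped mTEC4, at most 0.0105 in the Aire-high and 0.0545 in the Krt5-high set, up to 0.111 in the Pth-high and 0.353 in the Trpm5-high set, and 0 in HFC. Markers of other cells differed between these sets too. The myeloid list summed to 2264 to 2812 CPM in the Aire-high set and to 41.3 to 153 in the Prss16-high set, and the thymocyte list to 57.2 to 70.8 and 161 to 483 CPM. In the Aire-high set most of the myeloid sum was Lyz2 (995 to 1428 CPM) and Laptm5 (1133 to 1576). Tyrobp (26.2 to 46.7), Fcer1g (55.5 to 81.5) and Cd68 (32.8 to 62.5) added less there, so the sum mainly follows Lyz2 and Laptm5. In the Prss16-high set Tyrobp stood at 0 to 5.15 CPM, Fcer1g at 0 to 7.11 and Cd68 at 10.7 to 15.5, all below the Aire-high set. The part of these markers in the ratios was not tested.

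**Figure D3:**
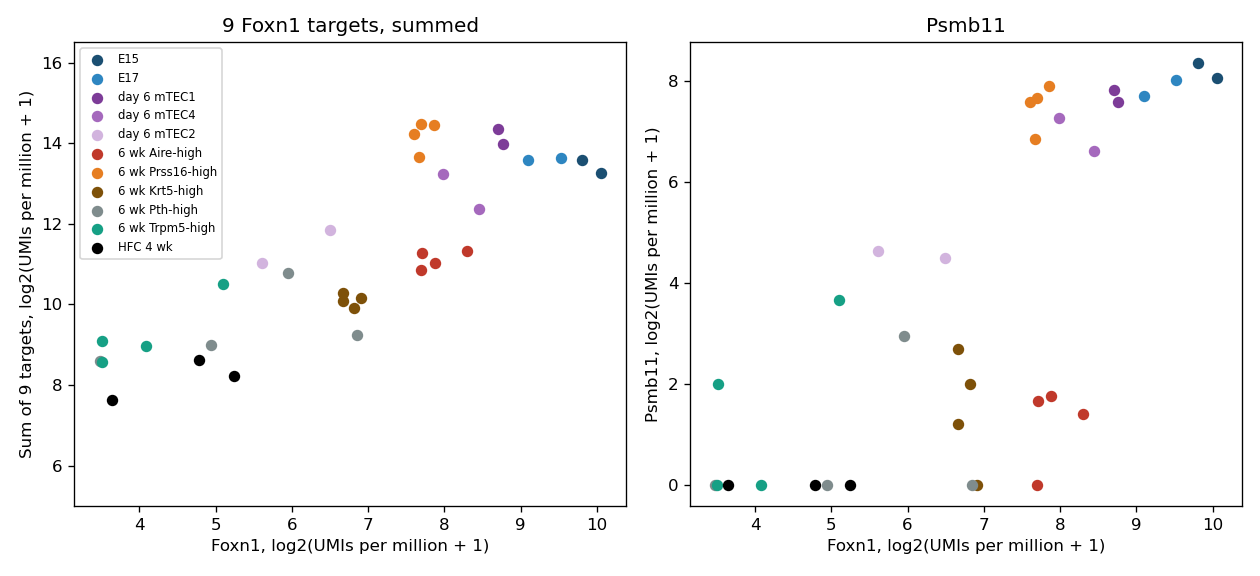
Sum of the 9 targets (left) and Psmb11 (right) against Foxn1, all as log2 of UMIs per 1000000 plus 1, with 1 point per library coloured by set. At 193 to 313 UMIs per 1000000 of Foxn1 the orange Prss16-high points and the red Aire-high points lie at the same place on the x axis and far apart on the y axis of Psmb11.

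**Figure D4:**
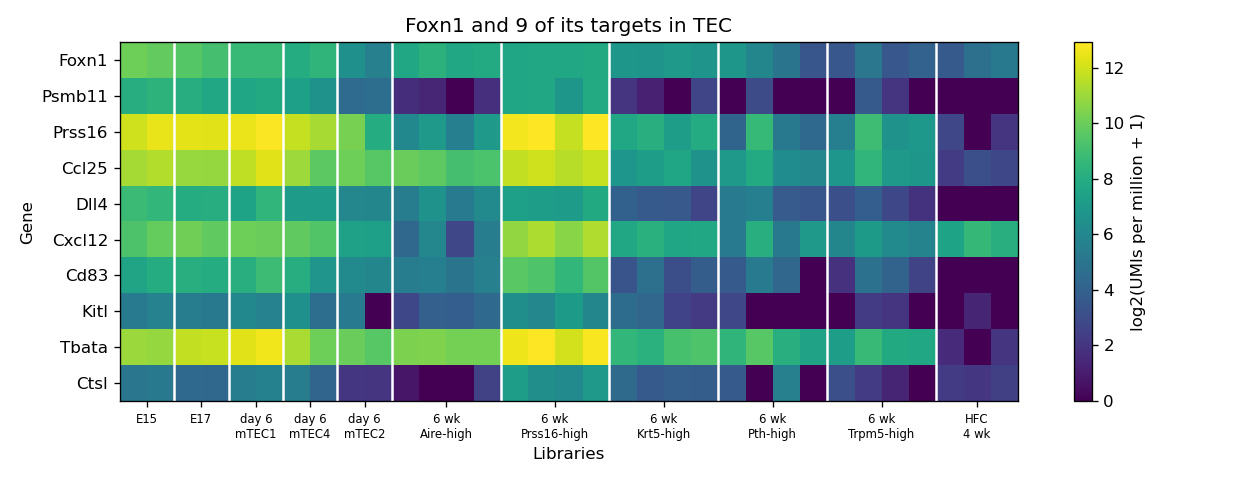
Foxn1 and its 9 listed targets in each library (columns, by set), as log2 of UMIs per 1000000 plus 1. The rows of Prss16, Ccl25 and Tbata are bright in the embryonic, day 6 mTEC1 and mTEC4 and Prss16-high libraries, where Kitl and Ctsl are dimmer. In HFC the row of Cxcl12 (180.5 to 384 UMIs per 1000000) stands out from the rest.

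In HFC most of the thymic targets were at or near 0. Of 9, 5 were lower than in 6-week TEC and 0 higher, where 20.4% of all genes were lower and 4.9% higher, and leaving out any 1 library kept the count at 5. The median was -4.10, against -0.75 over all genes. With the 3 targets at 0 UMIs set to their bounds it was -5.08. Those bounds come from mean CPM and the other values from mean log2 levels, so -5.08 and -0.75 are unlike measures. The low Gapdh libraries alone gave 1 call, in a fit with 1 HFC library, which is assumed to vary like those of 6 weeks. Tbata was 1.62 ± 1.49 CPM (SD, n = 3) against 1725 ± 2427 (SD, n = 20; log2 difference -7.95 ± 0.88, SE; limma adjusted p = 9.69e-09), and Ccl25 was 5.84 ± 1.98 against 933 ± 1346 (-5.59 ± 0.95, SE; limma adjusted p = 2.79e-05). Psmb11, Dll4 and Cd83 had no UMI in the 3 libraries, which hold 1841009 UMIs in all. With 3 UMIs over the group as the floor (1.63 CPM), Dll4 was at least 33.8-fold lower and Cd83 at least 87.6-fold lower than the 6-week mean. Psmb11, at least 24.1-fold lower than the 6-week mean of 39.2 CPM by the same floor, was not among the calls (limma adjusted p = 0.212). That mean rests on the Prss16-high set (115 to 238 CPM). The 6-week median of Psmb11 was 2.29 CPM, so HFC could not be told apart from most 6-week libraries in this gene. Cxcl12 stood at 180.5, 384 and 281 CPM, within the 6-week range, and did not pass (0.84 ± 1.10, SE; limma adjusted p = 0.572).

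Keratinocyte markers were high in HFC: 5 hair follicle keratinocyte markers summed to 94936 to 121485 CPM, against 1878 to 13368 in 6-week TEC, and endothelial markers to at most 1.92 CPM. Of 9 hair follicle regulators, 8 are in the table and 4 were higher in HFC, with 0 lower, beside the 4.9% of all genes higher and 20.4% lower. Hoxc13, a regulator of hair keratins that acts on Foxn1 in the mouse hair follicle, was 135 ± 33.2 CPM (SD, n = 3) against 0.0365 ± 0.163 (SD, n = 20; log2 difference 6.23 ± 0.29, SE; limma adjusted p = 2.18e-18). Lhx2, a factor of follicle stem cells, was 184 ± 64.8 against 1.33 ± 2.68 (6.16 ± 0.53, SE; limma adjusted p = 2.31e-11). Tbx1 (268 ± 102 CPM) and Sox9 (252 ± 95.3 CPM) were the others. The hair shaft genes linked to Foxn1 did not show: of 5 listed, 3 are in the table (Krt33a, Krt33b and Krt86) and 0 passed in any comparison, with Krt33b and Krt86 at 0 UMIs in HFC.

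Genes that act before or beside Foxn1 in the third pharyngeal pouch are given next, since Foxn1 is switched on there. Pax1, a paired box factor of the pouch, was 1359 and 1435 CPM at E15 and 1026 and 1189 at E17. It was 224 ± 274 CPM (SD, n = 20) at 6 weeks against 1252 ± 182 (SD, n = 4) in the embryo (log2 difference -3.45 ± 0.76, SE; limma adjusted p = 0.00135). In the Prss16-high set it stood at 629 to 821 CPM and in the Aire-high set at 41.7 to 93.5, with no overlap. Of the 9 early regulators 2 were lower at 6 weeks than in the embryo, Pax1 and Pax9 (-1.34 ± 0.46, SE; limma adjusted p = 0.0410), and 0 higher, beside the 7.2% and 8.62% of all genes. On day 6, 2 were higher in mTEC1 than in mTEC2 (3.17% of all genes), Pax1 (2.09) and Six4 (3.25, at 0 UMIs in mTEC2). In HFC Eya1, Six4, Pax1 and Pax9 were lower than at 6 weeks, each with 0 UMIs in the 3 libraries, while Tbx1 was higher (20.4% of all genes lower, 4.9% higher). For Pax1 the floor gives at least 138-fold lower than at 6 weeks.

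BMP and WNT signals induce Foxn1 in TEC, and RB and E2F factors act on its expression. Of 11 BMP genes tested, 1 was higher at 6 weeks than in the embryo (Msx1, 22.5 ± 31.6 against 1.21 ± 0.541 CPM; limma adjusted p = 0.0137) and 0 lower, where 8.62% of all genes were higher and 7.2% lower. In HFC 3 of the 11 were lower than at 6 weeks (Id3, Bmp2 and Msx1), beside the 20.4% of all genes. On day 6 the BMP response genes Id1 and Id3 were lower in mTEC1 than in mTEC2 (-1.82 and -1.10; limma adjusted p = 0.0212 and 0.0453) and than in mTEC4 (-2.63 and -1.58; limma adjusted p = 0.0189 and 0.0348), where 2.97% and 0.392% of all genes were lower. The endothelial markers given above were also lower in mTEC1 than in mTEC2 and mTEC4, and their part in the Id1 and Id3 differences was not tested. Of 9 WNT genes 1 was lower at 6 weeks than in the embryo, Kremen1, an inhibitor of the pathway (-1.27 ± 0.39, SE; limma adjusted p = 0.0201), beside the 7.2% of all genes lower. In HFC Ctnnb1, which encodes beta-catenin, was higher (1.33 ± 0.26, SE; limma adjusted p = 0.000159), and Axin2 and Wnt4 were lower, beside the 20.4% of all genes. Of 7 RB and E2F genes 2 were lower at 6 weeks than in the embryo, E2f3 (18.1 ± 2.68 to 4.30 ± 2.62 CPM) and E2f1 (15.1 ± 5.52 to 3.94 ± 3.37), beside the 7.2% of all genes lower. From day 6 to 6 weeks 4 were lower (E2f1, E2f3, Rbl1 and E2f4), beside 5.41% of all genes, where Foxn1 itself did not pass. Of the related forkhead genes, Foxn3 was higher at 6 weeks than on day 6 (25.8 ± 10.8 against 9.97 ± 7.03 CPM; limma adjusted p = 0.0207), a call that leaving out some single libraries removed, and Foxn2 passed in no comparison. The age comparisons come from the same fit and some of them share a group of libraries, so their lists are not independent of each other.

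Genes whose levels followed Foxn1 were ranked by Spearman's rho over libraries, as a description with no test, since libraries of a set share a cell population and depth. Over all 33 libraries and 7192 genes with a mean of at least 20 CPM, the median rho was 0.05, and 32 genes (0.445%) exceeded 0.8. The 10 highest ran from 0.91 to 0.87: Mreg, a factor of organelle transport; Psmb10, an immunoproteasome subunit; Fn1, fibronectin; Hspe1, a mitochondrial chaperonin; Oma1, a mitochondrial protease; Vars, valyl-tRNA synthetase; Ppp1r27, a phosphatase subunit; Ufsp1, a UFM1 protease; Dll4; and Ramp3, a receptor partner. Psmb10 had set medians of 4031 CPM at E15, 2441 in day 6 mTEC1, 1060.1 in the Aire-high set, 423 in the Trpm5-high set and 23.6 in HFC. The 5 lowest ran from -0.86 to -0.83 and were Cdkn1a, a cell cycle inhibitor, Egr2, Egr3, Ephb3 and Pdk2. Cdkn1a had a median of 12.2 CPM at E15 and 795 in the Trpm5-high set.

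Over the 20 libraries of 6 weeks, where 37 of 7352 genes (0.503%) exceeded 0.8, the 10 highest ran from 0.92 to 0.87. They were Mreg, Map3k8, Cxcl10, Ache, Fam107b, H2-DMb1, Epb41l3, Vars, Phgdh and Npl, of which Mreg and Vars were also among the 10 over 33 libraries. Cxcl10, an interferon-induced chemokine, had medians of 1067 CPM in the Aire-high and 1200.5 in the Prss16-high set and 136 in the Trpm5-high set. The 5 lowest were Klhdc10, Tmem191c, Aopep, Idh2 and Ypel3, from -0.92 to -0.89. Leaving out the 2 libraries farthest from the median Foxn1 level gave a Pearson r of 0.79 to 0.93 for the 10 genes over 33 libraries and of 0.76 to 0.96 for those over 20. The likeness lay between sets more than within them. With the mean of its set taken from each value, rho of the 10 genes over 33 libraries ran from -0.26 (Ramp3) to 0.53 (Dll4), and 0 of them stayed among the 10 highest.

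The listed targets followed Foxn1 unequally. Over 33 libraries rho was 0.87 for Dll4, 0.82 for Tbata, 0.78 for Ccl25, 0.75 for Cd83, 0.72 for Psmb11 and 0.49 for Cxcl12. Over the 20 libraries of 6 weeks it was 0.85 for Tbata, 0.80 for Ccl25, 0.77 for Dll4 and 0.74 for Cd83. There it was 0.35 for Psmb11 and 0.08 for Cxcl12. For Kitl, Prss16 and Ctsl rho was 0.78, 0.68 and 0.49 over 33 libraries and 0.77, 0.35 and 0.22 over 20. In the Aire-high set Psmb11 was at most 2.38 CPM and Cxcl12 at most 62.3 CPM beside 207 to 313 CPM of Foxn1. The letters GACGC or GCGTC were in the windows of 4 of the 8 matched genes among the 10 over 33 libraries and of 3 of 8 among those over 20, beside the 45.7% of all genes of the table.

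**Figure D5:**
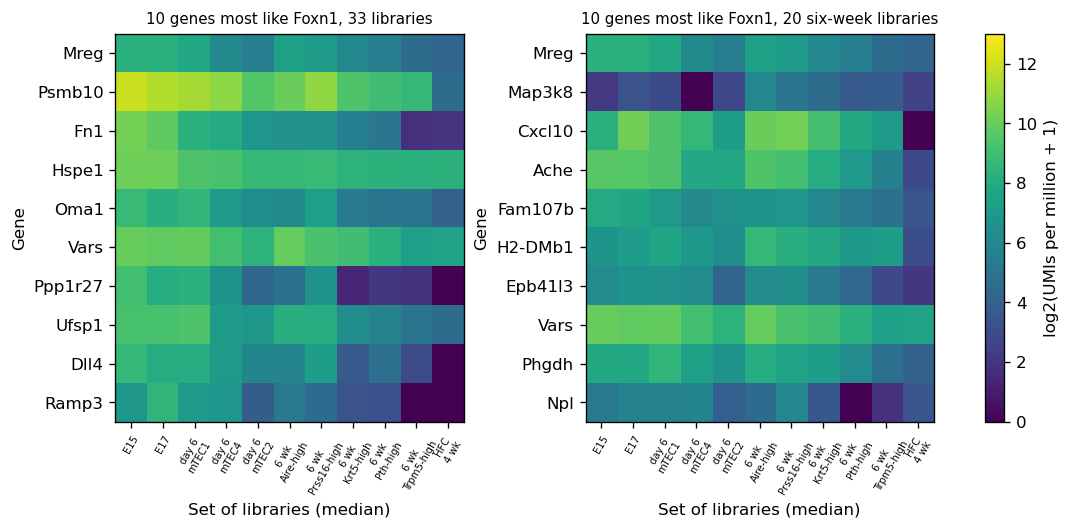
Set medians of the 10 genes with the highest Spearman rho to Foxn1 over 33 libraries (left) and over the 20 libraries of 6 weeks (right), as log2 of UMIs per 1000000 plus 1. Sets run from left to right as in the plot of Foxn1 levels. Most left rows are brighter at E15 than in HFC, with rises between them (Vars 338 in day 6 mTEC2 and 978 in the Aire-high set), and Hspe1 stays between 308 and 1120.0 UMIs per 1000000.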

How the data were processed

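The labels' protocols give digestion of thymi (Liberase TH, DNase), capture of RNA on Dynabeads and bulk MARS-seq. Build mm10 and the tools STAR 2.4.2a, HTSeq, cutadapt, bcl2fastq and DESeq2 are named in the submitters' processing notes, without roles. The authors deposited normalized signal values that sum to 100 per library, so each is a percentage of the library's UMIs. The low values gave back whole UMIs in 33 of 33 libraries (within 0.01). The plan had assumed normalized UMIs; the percentages were multiplied by 1 constant, to the median total of 570253 UMIs, before log2(value + 1). Differences are on that scale, which understates those of low genes. CPM is UMIs per 1000000.

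Each limma 3.58.1 fit (trend, two-sided, R 4.3.3) took genes that reached 5 normalized UMIs in 2 or more of its libraries, with Benjamini-Hochberg adjustment at 0.05. E17 against E15 and the day 6 titles came from a fit of 10 libraries, and age comparisons from a fit of 33 with ages as groups. Exact permutation tests used mean log2 levels. The fits were tested on simulated data. The members, gene lists and marker thresholds were chosen with earlier results of these data known. Genes named are Foxn1, the 5 markers, up to 4 members of a list with the smallest adjusted p, other list members that a count of 9 or fewer names, and the 10 highest and 5 lowest by rho. Alternatives were pseudocounts of 0.5 and 5, no filter, median of ratios scaling, edgeR 4.0.16, DESeq2 1.42.0, a block on title numbers and leaving out each library. Splits by depth and Gapdh, the 10-library fit and set-mean subtraction were chosen after seeing the data. Other software was matplotlib 3.10.9, scipy 1.17.1, pandas 2.3.3 and numpy 2.4.6 under Python 3.11.15. Values of some early regulators are not reported here.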

Additional observations from a re-analysis of the deposited data

How the results depend on the processing

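No Foxn1 difference between groups changed sign under the settings run. Those that changed side of an adjusted p of 0.05 (limma unless named) were as follows; the cause was not tested. Day 6 against embryonic (-1.95) passed with only the 2 ages in the fit (adjusted p = 0.0413) and in the 10-library fit (adjusted p = 0.000173). The 6-week against embryonic difference was -3.07 and did not pass (adjusted p = 0.201) among low Gapdh libraries. HFC against 6 weeks passed with DESeq2 (-1.87, adjusted p = 0.0374), without the 4 libraries under 200000 UMIs (-2.02, adjusted p = 0.0477) and among high Gapdh libraries (-2.58, adjusted p = 0.0305). The last fit holds 2 HFC and 3 6-week libraries, 2 Krt5-high and 1 Aire-high, and none of the other 3 sets. Over all settings other than leaving out a library, adjusted p ran from 0.000173 to 0.268, from 0.000144 to 0.201 and from 0.0305 to 0.733 in these comparisons. Subtracting set means kept 0 of the 10 genes most like Foxn1.

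Leaving out 1 library at a time moved no Foxn1 test across the threshold. Log2 differences ran from -0.83 to -0.40 (E17 against E15), 2.23 to 3.10 (mTEC1 against mTEC2), 0.29 to 0.75 (mTEC1 against mTEC4), 1.71 to 2.59 (mTEC4 against mTEC2), -2.17 to -1.54 (day 6 against embryonic), -3.43 to -3.11 (6 weeks against embryonic), -1.71 to -1.09 (6 weeks against day 6) and -2.09 to -1.32 (HFC).

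Title numbers were not taken as pairs: 0 of 20 same-number correlations of E15, E17 and day 6 exceeded 0.1. Among the 6-week titles 24 of 40 did (-0.30 to 0.72), and there number and marker set go together. With a replicate block Foxn1 was 2.67 higher in mTEC1 than mTEC2 (adjusted p = 0.00351), 2.15 higher in mTEC4 than mTEC2 (adjusted p = 0.0078), 0.52 apart in mTEC1 and mTEC4 (adjusted p = 0.499) and -0.62 for E17 against E15, and across 6-week titles 0 genes passed.

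Counts of called genes moved more. E17 against E15 had 88, with edgeR 172, DESeq2 247 and 5 to 16 without 1 library. mTEC1 against mTEC4 had 154, with 102 unfiltered, 250 with DESeq2, 58 with the block and 0 to 148 without 1 library. mTEC4 against mTEC2 had 845, with 422 by edgeR and 532 to 2398 without 1 library, and mTEC1 against mTEC2 had 705, with 95 to 2554. Day 6 against embryonic had 531, with DESeq2 1579, 846 in the fit of 2 ages, 1848 in the 10-library fit and 266 to 601 without 1 library. The 6-week against embryonic count was 2242, with edgeR 3975, DESeq2 4899, 961 and 211 in high and low Gapdh libraries and 1181 to 2449 without 1 library. HFC had 3584, with 509 in low Gapdh libraries, of which 1 is HFC, and 2111 to 4093 without 1 library, and 6 weeks against day 6 had 1409, with 904 to 1685.

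List counts differed in the Gapdh splits, which also leave fewer libraries. Among low Gapdh libraries 0 early regulators (against 2 in all libraries) and 0 Foxn1 targets (against 4) were called lower at 6 weeks than in the embryo. In HFC against 6 weeks those libraries, 1 against 17, called 1 BMP gene lower (against 3) and 2 hair regulators higher (against 4). With 1 library left out, the early regulators and the RB and E2F genes lower at 6 weeks than in the embryo numbered 1 to 3 each.

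Levels under 3 UMIs per library could not be told from 0, which limits Foxn1 most in the Pth-high set.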
